A study of Homo sapiens with 6 samples.

Results

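The lysosome and autophagy mRNAs described here are those of 42 genes chosen by name, out of 15731 genes with transcripts in the study's 6 RT-stop libraries. They comprise 6 lysosomal membrane proteins, 14 lysosomal hydrolases and their cofactors, 9 subunits and accessory proteins of the vacuolar ATPase (V-ATPase), 10 autophagy factors and 3 regulators. All 42 were found, each with 1 RefSeq transcript, and all were listed in every library except TFEB, which had no listed stop in starved cells. The study asked whether RNA G-quadruplexes (rG4s), stacks of planar guanine quartets held together by monovalent cations, become more folded in stressed cells. All libraries came from poly(A)-selected RNA of U2OS, a human osteosarcoma cell line, with 1 library per condition. A pair without dimethyl sulfate (DMS) was labelled as reverse transcribed in 150 mM K+ or 150 mM Na+, although the study's methods name Li+ beside K+ for this step. A pair was refolded and treated with DMS in vitro in 150 mM K+ or 150 mM Li+, and a pair came from cells treated with 8% DMS for 5 min, either unstressed or starved for 2 h in a balanced salt solution. These 4 DMS libraries were all reverse transcribed in 150 mM K+. Nothing was replicated, so differences between conditions cannot be set against a spread of replicates, and all intervals are for counting error alone.

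Lysosomes are acidic compartments in which hydrolases break down proteins, lipids and sugars, and the V-ATPase pumps the protons that keep them acidic. Autophagy brings cytoplasm to them inside double membranes, and the LAMTOR proteins anchor the growth kinase complex mTORC1 to the lysosome when amino acids are present. When amino acids are withdrawn, mTORC1 is switched off, autophagy begins, and the transcription factor TFEB can turn on genes of both systems.

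RT stops at G in these mRNAs were led by a few G-rich segments, most of them in 3′ UTRs. Shown here are the 30 nt that end at the strongest stop of 8 of them, because an rG4 that stalls reverse transcriptase lies directly 5′ of the stop. The sequences are from GENCODE transcripts on GRCh37 (hg19), in mRNA sense, with runs of at least 2 G in capitals.
PSAP, 3′ UTR, exon 14 of 14, chr10:73576506-73576535 (minus strand): GGGGuucuguGGGuuuGGGuGGGaagaGGG
CTSZ, 3′ UTR, exon 6 of 6, chr20:57570296-57570325 (minus strand): uagaaucaaGGGuGGGGGaGGGaGGGaGGG
ATP6AP1, 3′ UTR, exon 10 of 10, chrX:153664238-153664267 (plus strand): cccugugccaguGGGGGGGuugaGGGuGGG
SCARB2, 3′ UTR, exon 12 of 12, chr4:77082231-77082260 (minus strand): uagaaucaaauGGGaaaGGGGuuGGGuGGG
LAMTOR5, coding sequence, exon 1 of 4, chr1:110950243-110950272 (minus strand): GGuucugagccGGaguGGucGGuGGGuGGG
LAMTOR1, 3′ UTR, exon 5 of 5, chr11:71808648-71808677 (minus strand): cuuugaagcucuGGccaGGGauGGGGuGGG
CTSD, 3′ UTR, exon 9 of 9, chr11:1774092-1774121 (minus strand): uauuGGccuGGaGGuGGGGuuGGGauuGGG
SQSTM1, 3′ UTR, exon 8 of 8, chr5:179264932-179264961 (plus strand): GGGcccaGGaGGaccgccugcccugccuGG
The first 7 had strong stops in the library labelled Na+ that were at least 2-fold weaker in the library labelled K+. SQSTM1 is shown as a strong stop of both libraries that was under 2-fold different.

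The listed stops summed to between 12999691 (unstressed) and 35371061 (labelled K+) per library. The sample labels and the deposited file names of the pair without DMS contradict each other about the cation, so those libraries are called by their labels and the exchanged assignment is given beside each result that needs it. Of 8 mesenchymal marker genes, 6 had stops, and their sums ranged from 5189 to 6671 per 1000000 listed stops (SPM) over the libraries, with TWIST1 and COL1A2 at 0. The 7 markers of blood, epithelial, liver and glial cells summed to 0.692 to 2.42 SPM.

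The lysosome and autophagy mRNAs held nearly equal shares of all listed stops in the 4 libraries that were not probed in cells, at 0.478% (labelled K+), 0.500% (labelled Na+), 0.497% (in vitro K+) and 0.491% (in vitro Li+). Their share was 0.644% in unstressed cells and 0.300% in starved cells. The 2 in-cell libraries therefore lay on either side of the other 4. A share of stops combines the amount of an mRNA with how strongly it was modified and reverse transcribed, and in bulk RNA fewer cells making an mRNA and less of it per cell cannot be told apart.

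PSAP, the precursor of the saposins that help hydrolases to reach their lipids, was among the mRNAs with the most stops. It had 820.1 SPM in the library labelled K+, 930.2 in that labelled Na+, 940.4 after refolding in K+, 899.8 after refolding in Li+, 1202 in unstressed cells and 182.5 in starved cells. Starved cells were the lowest of the 6 libraries and unstressed cells the highest. The starved share was 0.152-fold the unstressed one (95% interval 0.147 to 0.157).

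With at least 100 listed stops over both in-cell libraries, 39 of the 42 transcripts could be compared. TFEB (14 stops in unstressed and 0 in starved cells), MCOLN1, a lysosomal calcium channel (59 and 21), and ATG7, the enzyme that activates ATG8 proteins (12 and 21), were under this minimum. In starved cells 1 member was at least 1.5-fold higher, where 33.0% of the 8572 genes tested were, and 23 were at least 1.5-fold lower, where 43.1% of all genes were. The median log2 ratio was -1.11 over the members and -0.20 over all genes. With the stops at unlisted nucleotides rebuilt from the deposited means, the counts were 1 higher (21.9% of all) and 24 lower (42.9% of all), with medians of -0.94 and -0.31. Rebuilding moved the ratios of the 23 lower members toward 0 and those of some others, such as ATP6V1H and NPC1, away from it, so the rebuilt value is given in parentheses for the members described most closely. ATP6V1A (0.12, rebuilt -0.09) and BECN1 (0.02, rebuilt -0.08), both near 0, changed sign with it.

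**Figure D1:**
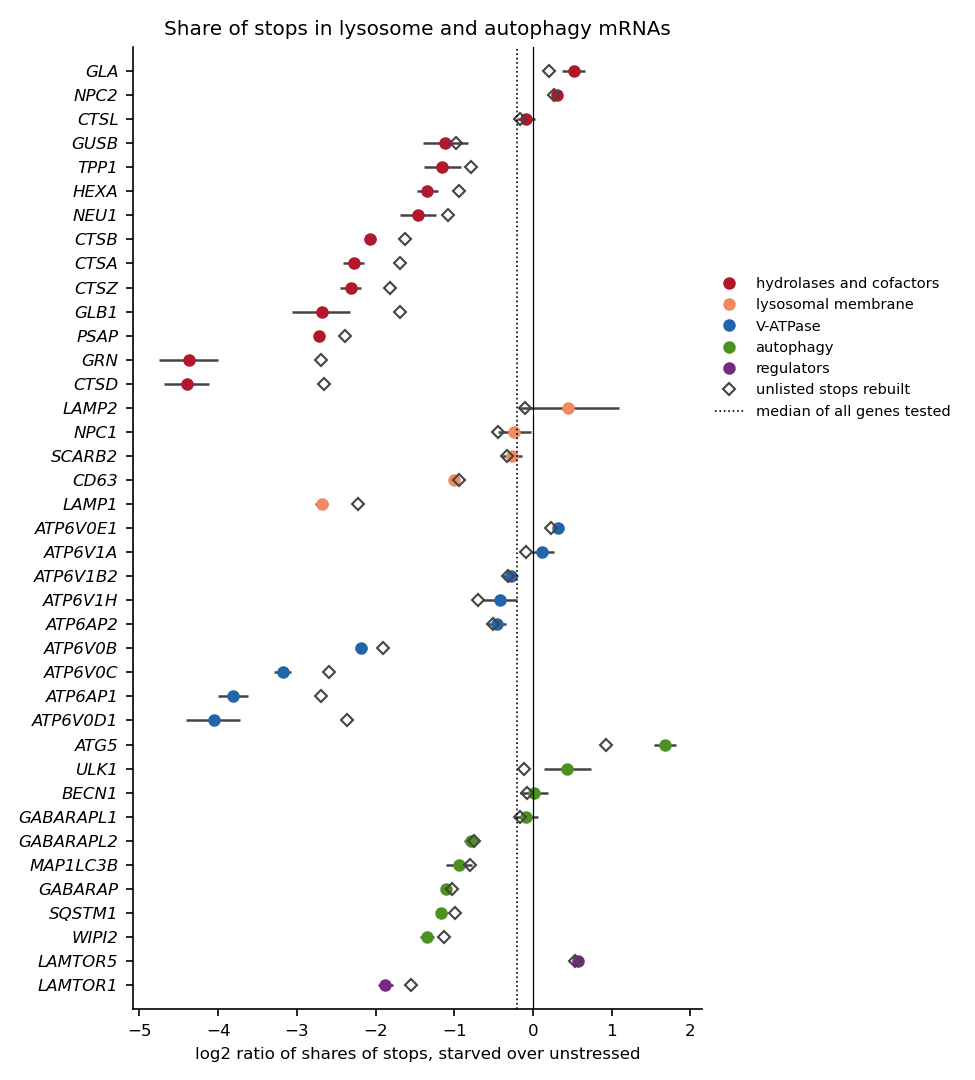
Log2 ratio of the share of listed stops in starved over unstressed cells (horizontal axis) for the 39 members compared, grouped by role. Filled points are listed stops with 95% counting intervals as bars, open diamonds have unlisted stops rebuilt, and the dotted line is the median of all 8572 genes. Hydrolases from GUSB to CTSD lie below -1, and ATG5 is alone above 1.

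Hydrolases and their cofactors had the largest group of lower members, with 11 of 14 at least 1.5-fold lower in starved cells (43.1% of all genes), none higher (33.0% of all) and a median log2 ratio of -1.77 (rebuilt -1.35). Relative to transcripts of similar GC content, 4 were higher and 4 lower, with a median of -0.21, near the shares over all genes (29.1% and 28.0%). CTSD, a lysosomal aspartic protease, had 69.3, 76.2, 73.7 and 78.5 SPM in the 4 other libraries (labelled K+, labelled Na+, in vitro K+, in vitro Li+), 97.6 in unstressed and 4.62 in starved cells. Its ratio was 0.0474 (interval 0.0386 to 0.0575), a log2 ratio of -4.40 (rebuilt -2.65). Centred by GC content this was -1.70, and -0.85 with unlisted stops also rebuilt. GRN, the progranulin precursor, had 28.1, 32.4, 37.5, 39.5, 56.7 and 2.75 SPM in the same order, a log2 ratio of -4.37 (rebuilt -2.70). In GRN the centred values were -1.66 and -0.90. Both had their highest value in unstressed and their lowest in starved cells. The 3 members of this group between the thresholds were the cysteine protease CTSL (-0.09), the cholesterol carrier NPC2 (0.31) and alpha-galactosidase A, GLA (0.52). GLA had 41.1, 38.9, 40.2, 44.2, 41.7 and 59.6 SPM, and was thus nearly level in 5 libraries and highest in starved cells (rebuilt 0.20).

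Of 9 V-ATPase members, 4 were at least 1.5-fold lower, near the 43.1% of all genes, and none was higher (33.0% of all). ATP6V0D1, a subunit of the membrane sector, had 37.0, 36.4, 39.0, 41.6, 54.1 and 3.25 SPM (log2 ratio -4.06, rebuilt -2.36). ATP6AP1, an accessory protein of the pump, had 95.4, 104.2, 104.6, 98.8, 155.8 and 11.1 (-3.81, rebuilt -2.69). ATP6V0C, which forms the proton-carrying ring, had 186.7, 191.6, 219.5, 214.6, 328.9 and 36.3 (-3.18, rebuilt -2.59). In each of these, unstressed cells were highest and starved cells lowest. ATP6V0B, also of the membrane sector, had a log2 ratio of -2.18 (rebuilt -1.91). Centred by GC content, ATP6V0C (-0.48) and ATP6V0B (0.0285) lay between the thresholds. ATP6V1A, ATP6V1B2 and ATP6V1H, subunits of the cytosolic sector, had log2 ratios of 0.12, -0.29 and -0.42, all between the thresholds. With unlisted stops rebuilt, ATP6V1H was -0.70 and counted as lower. Centred by GC content, ATP6V1A (-0.75) and the accessory protein ATP6AP2 (-1.50) counted as lower.

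Of the lysosomal membrane members, 2 of the 5 compared were lower, near the 43.1% of all genes. LAMP1, the most abundant of these glycoproteins in many cells, had a log2 ratio of -2.68 (rebuilt -2.23), and the tetraspanin CD63 one of -0.999 (rebuilt -0.95), which was 0.71 when centred by GC content. LAMP2, a close relative of LAMP1, had 28.7, 27.3, 29.5 and 30.5 SPM in the 4 libraries not probed in cells, but 2.38 in unstressed and 3.25 in starved cells, from 31 and 78 stops. Both in-cell values were thus far under the other 4, and the ratio between them (1.36, interval 0.888 to 2.14) was not resolved from 1. NPC1, the membrane cholesterol transporter, and SCARB2, the receptor that brings glucocerebrosidase to lysosomes, had log2 ratios of -0.24 and -0.27 (rebuilt -0.45 and -0.34).

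Among autophagy factors, 5 of the 9 compared were lower (43.1% of all genes) and 1 was higher (33.0% of all). Centred by GC content, 2 were lower (28.0% of all) and 3 higher (29.1% of all), with WIPI2 (0.37) and SQSTM1 (0.79) above 0. The 3 were ULK1, SQSTM1 and GABARAPL1. ATG5, part of the conjugate that attaches ATG8 proteins to lipid, had 91.5, 80.8, 84.1, 88.6, 36.9 and 117.6 SPM. Starved cells were highest and unstressed cells lowest of the 6 libraries. The ratio was 3.18 (interval 2.89 to 3.51), a log2 ratio of 1.67 (rebuilt 0.93), and 0.48, between the thresholds, when centred by GC content. The lower ones were WIPI2 (-1.34, rebuilt -1.13), which binds the lipid of the forming autophagosome, the cargo receptor SQSTM1 (-1.16, rebuilt -0.99), and the ATG8 proteins GABARAP (-1.11), MAP1LC3B (-0.94) and GABARAPL2 (-0.78), with rebuilt values of -1.03, -0.80 and -0.75. GABARAPL1 (-0.09) and BECN1 (0.02), a subunit of the lipid kinase that starts autophagosomes, were close to 0. ULK1, the kinase that initiates autophagy, had 2.94, 5.01, 2.23, 4.17, 10.2 and 13.7 SPM and was higher in both in-cell libraries than in the others. Its log2 ratio of 0.44 turned to -0.12 with unlisted stops rebuilt, and that of LAMP2 went from 0.45 to -0.10.

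The 2 LAMTOR subunits lay on either side of 0, but not when centred by GC content alone (LAMTOR1 0.0778, LAMTOR5 1.61). With unlisted stops rebuilt as well they again did (-0.11 and 1.42). LAMTOR5 had 203.5, 235.3, 211.6, 195.2, 274.6 and 406.2 SPM, a log2 ratio of 0.56 (rebuilt 0.53), just under the 1.5-fold threshold of 0.58. LAMTOR1, which carries the lipid anchor of the complex, had a log2 ratio of -1.88 (rebuilt -1.55).

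**Figure D2:**
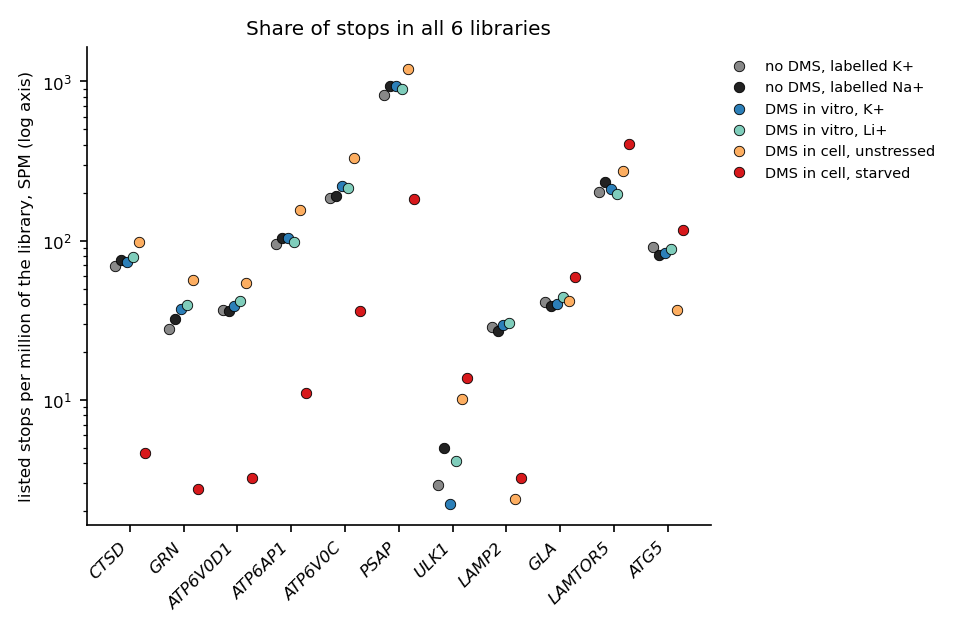
SPM (vertical log axis) in the 6 libraries for the 5 members with the largest falls, PSAP and the 5 with the largest rises in starved cells; each point is 1 library. In the 5 falls and in PSAP the 4 libraries not probed in cells lie close together between unstressed and starved cells, whereas in LAMP2 both in-cell libraries lie under the rest.

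Over the 39 members, the highest of the 4 libraries not probed in cells was a median of 1.13 times the lowest (range 1.04 to 2.24). Starved cells were below all 4 in 30 members (58.6% of all genes) and above all 4 in 9 (32.4% of all). Unstressed cells were above all 4 in 27 members (36.4% of all) and below all 4 in 9 (49.7% of all). In 20 members unstressed cells were above and starved cells below all 4 (22.6% of all). Fewer members differed within the other pairs. In vitro, 0 of 41 members were at least 1.5-fold higher in K+ than in Li+ (0.153% of all) and 4 were lower (11.7% of all), namely ATG7, GLB1, MCOLN1 and ULK1, whose log2 ratios with unlisted stops rebuilt were -0.43, -0.10, -0.18 and -0.44. Without DMS, 0 of 41 were higher in the library labelled K+ (1.72% of all) and 3 were lower (5.31% of all). These were CTSZ (-0.68, rebuilt -0.60), MCOLN1 (-1.11, rebuilt -0.22) and ULK1 (-0.77, rebuilt -0.11).

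The ratio of starved to unstressed shares moved with the GC content of the transcript. Across 8174 matched transcripts Spearman's rho was -0.80, and across the 39 members it was -0.71 (Pearson's r -0.72). Transcripts are not independent replicates, and all of these points come from the same pair of libraries. The 23 lower members had a median GC content of 55.2% and the 16 others 45.8%, and all 39 had a median of 50.6% where all genes had 46.9%. The same rho over all transcripts was 0.02 for the in vitro pair and -0.48 for the pair without DMS. With each ratio taken relative to the median of transcripts of similar GC content, an alternative chosen after seeing the data, 9 members were at least 1.5-fold higher (29.1% of all) and 13 lower (28.0% of all), with a median of -0.30. With unlisted stops also rebuilt, 4 were higher (19.4% of all) and 13 lower (17.9% of all), with a median of -0.25. Centred by GC content alone, the V-ATPase group had 0 higher and 4 lower members (median -0.58) and the lysosomal membrane group 1 and 3 (median -0.59). The median of autophagy factors was 0.37. With rebuilding and centring together PSAP was at -1.12, ATP6AP1 at -1.06, ATP6AP2, a further accessory protein of the pump, at -1.12, and MAP1LC3B at -1.03. ULK1, the member richest in GC at 64.1%, was at 1.81 and LAMTOR5 at 1.42, while ATG5, the poorest in GC at 38.5%, was at 0.32. The part of GC content in the shares was not tested.

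**Figure D3:**
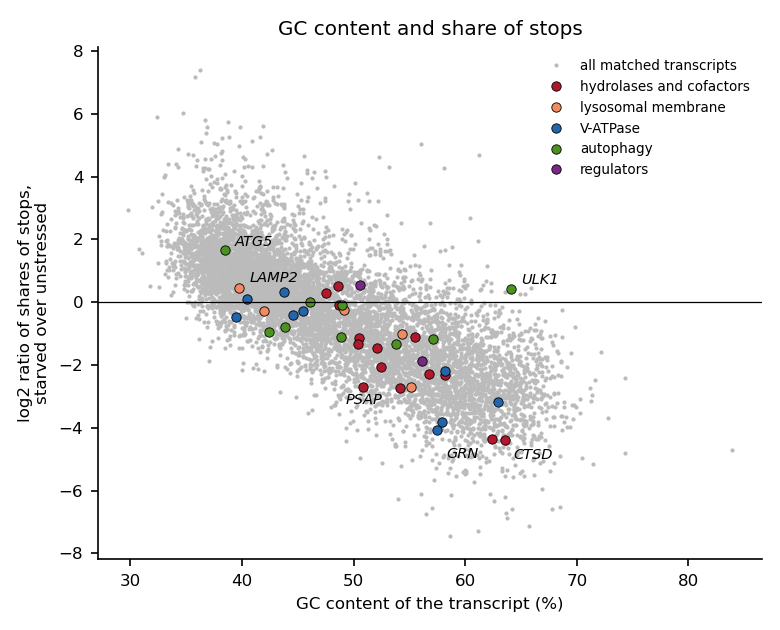
GC content of the transcript in percent (horizontal axis) against the log2 ratio of shares in starved over unstressed cells (vertical axis). Grey points are all 8174 matched transcripts and coloured points are the 39 members by role. The ratio falls with GC content, with ATG5 at the upper left, CTSD and GRN at the lower right, and ULK1 above the other GC-rich members.

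Other genes of the same pathways were counted for comparison. Of 96 further lysosome, V-ATPase, autophagy and regulator genes, 94 were in the files and 69 could be compared, with 20 higher (33.0% of all genes), 29 lower (43.1% of all) and a median log2 ratio of -0.15. These pooled counts are near the shares over all genes, but the lists differed. Centred by GC content, 13 of 67 were higher (29.1% of all) and 18 lower (28.0% of all). The 23 lysosome genes had 2 higher and 12 lower, and 0 and 11 centred by GC content. The 26 autophagy genes had 11 higher and 10 lower, and 4 and 4 of 24 centred by GC content. The 7 V-ATPase genes had 3 higher and 2 lower, and the 13 regulators 4 and 5. The 2 largest falls were ATP6V0E2, a subunit of the membrane sector (-6.12, rebuilt -3.90, 113 stops in unstressed and 3 in starved cells), and RPTOR, a component of mTORC1 (-4.88, rebuilt -3.06). The 2 largest rises were RB1CC1, the scaffold of the ULK1 complex (2.90, rebuilt 1.90), and the cargo receptor TAX1BP1 (2.27, rebuilt 1.50). Rebuilt and centred by GC content, the falls were -2.10 and -1.34 and the rises 1.17 and 0.77. The GC contents of the falls were 62.2% and 60.0%, and those of the rises 37.6% and 37.8%.

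DMS methylates A and C, and reverse transcription stops there. Of 35 members with enough stops, 34 had a smaller share of stops at A or C in starved than in unstressed cells, with medians of 81.7% and 93.7%. All transcripts had medians of 85.3% and 94.6%, and the share was higher in starved cells in 2.15% of them. In PSAP it was 79.7% in unstressed and 69.5% in starved cells, and in ATG5 99.2% and 86.4%. The exception was ATP6V1H. The share of stops in the 3′ UTR was higher in starved cells in 21 and lower in 12 of the 35 members (higher in 48.9% of all transcripts), with a median difference of 0.982 percentage points where all transcripts had 0. It rose by 19.2 points in CTSZ and 7.33 in PSAP and fell by 17.0 in ATG5. The pattern of stops at A and C along each mRNA correlated between unstressed and starved cells with a median Pearson's r of 0.51 over 11 members (range 0.40 in SQSTM1 to 0.68 in LAMTOR5) and 0.56 over 1370 transcripts.

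To locate rG4-like stops, the stop count at each nucleotide was divided by the mean of its transcript (E), and a stop was called strong if E reached 10 and its transcript averaged 1 stop per nucleotide or more. In the library labelled Na+, 37 of 46 strong stops in members were at G (80.4%, 95% Wilson interval 66.8 to 89.3%), where all transcripts had 56.9%. In the library labelled K+ it was 8 of 14 (57.1%, interval 32.6 to 78.6%), where all transcripts had 25.7%. In the 4 DMS libraries most strong stops were at A, and G made up 4 of 92 for RNA refolded in K+, 2 of 142 for Li+, 2 of 215 for unstressed and 7 of 123 for starved cells. All transcripts had 3.05%, 1.59%, 1.10% and 3.37%, each inside the interval of the members' share. The pair without DMS gave 40 strong stops at G in 13 members. Merged within 30 nt, they formed 20 regions, 14 in 3′ UTRs, 5 in coding sequence and 1 in a 5′ UTR. The intervals of these shares take stops as independent, although neighbouring stops often lay in 1 region, so they are too narrow.

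By the labels, 2 of the 8 strong stops at G of the K+ library, in CTSZ and ATG5, were at least 2-fold stronger in K+, where 13.9% were in all genes. With the labels exchanged, 31 of 37, in 8 members, were stronger in the library taken as K+, where 74.8% were in all genes. The share over all genes counts only transcripts past the minimum in both libraries, whereas the 37 include 1 GRN stop that is not. Of 29 of these with sequence, 24 (82.8%, interval 65.5 to 92.4%) had 4 runs of 2 or more G, with 1 to 9 nt between runs, in the 30 nt ending at the stop. Over all genes 85.4% of such stops did. Neighbouring stops of 1 segment share much of their 30 nt, and the interval takes them as independent. Runs of 3 or more G with 1 to 7 nt between them were found before 7 of the 29 (24.1%), where all genes had 23.9%. The other 7 member stops, 6 of them under 2-fold different and 1 in GRN on a transcript under the minimum in the library labelled K+, had neither motif (0 of 7), where 13.3% and 2.22% of such stops did in all genes. The search used the mRNA strand, and the second motif is contained in the first.

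PSAP had 7 strong stops at G in the library labelled Na+, in 2 regions of its 3′ UTR that begin 684 and 973 nt after the stop codon. At nucleotide 2380, the end of the sequence shown, the library labelled K+ had 12 stops and that labelled Na+ 1454, RNA refolded in K+ had 112 and in Li+ 65, and unstressed cells had 14 and starved cells 17. Relative to the transcript, E was 1.16 and 130.7 without DMS, a 112.7-fold difference (interval 64.3 to 218.7). E was 15.2 in vitro in K+ and 6.47 in Li+, 2.35-fold apart (interval 1.71 to 3.24, two-sided Fisher's exact test with Benjamini-Hochberg adjustment over all strong stops at G, adjusted p = 4.8e-06). In unstressed cells E was 2.39 and in starved cells 8.48, 3.54-fold apart (interval 1.64 to 7.76, same exact test, adjusted p = 0.0055). The raw counts of 14 and 17 came from libraries of 12999691 and 24014417 listed stops, so the stop did not gain in share of the library. The transcript had fewer stops in starved cells, with a mean of 2.00 stops per nucleotide against 5.85. At nucleotide 2373, 7 nt upstream and at the end of an earlier G run of the same segment, the counts were 31, 1166, 70, 52, 11 and 26. There E was 6.90-fold higher in starved cells (interval 3.29 to 15.5, same exact test, adjusted p = 6.5e-07). Nucleotide 2379, next to 2380, had 17, 564, 30, 35, 11 and 3 stops, and its E was 0.796-fold in starved over unstressed cells (interval 0.143 to 3.01). In the second region, E was 3.75-fold higher at nucleotide 2661 (interval 1.24 to 11.9, same exact test, adjusted p = 0.04) and 1.13-fold and 1.22-fold at 2662 and 2666, with intervals of 0.401 to 2.85 and 0.335 to 3.71. Of the 7 strong stops of PSAP, 4 thus had a higher E in starved cells by the test (3 with unlisted positions set to 2, where 2661 had an adjusted p of 0.058 in the same exact test), the fourth being nucleotide 2372 with 7 stops there and none listed in unstressed cells. The test compares 2 libraries and not the conditions. E is relative to all stops of the transcript, most of them at A or C. The share at A or C was 79.7% in unstressed and 69.5% in starved cells in PSAP, and 88.8% and 65.9% in CTSZ. It was smaller in starved cells in 34 of 35 members, and how far this moved E at G was not tested.

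**Figure D4:**
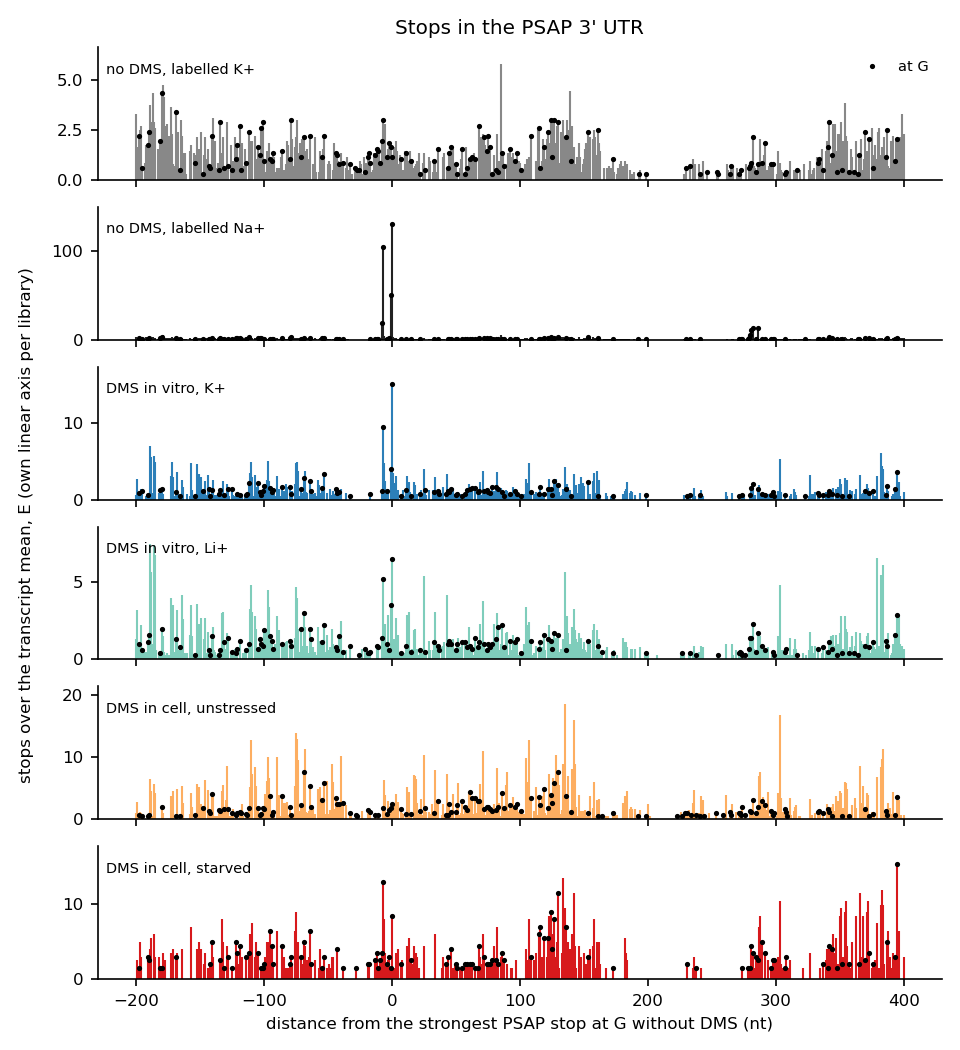
Stops over the transcript mean (vertical, linear, own scale in each panel) along the PSAP 3′ UTR in the 6 libraries, by distance in nt from nucleotide 2380; black points mark stops at G. The cluster at 0 and 7 nt upstream stands alone in the library labelled Na+ (E of 130.7), is the strongest of the window in vitro in K+ (15.2), and is not a peak in unstressed cells (2.39). In starved cells its upstream stop (13.0) is higher than the one at 0 (8.48), and a stop at G near the downstream end of the window (15.5) is higher than both.

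The in vivo folding score places E in cells between the in vitro values in Li+ (0) and K+ (1), for stops at least 2-fold stronger in K+. For PSAP nucleotide 2380 it was -0.47 in unstressed and 0.23 in starved cells, and for LAMTOR5 nucleotide 304 it was -0.17 and 0.51. Of the 8 member stops with a score, 6 were higher in starved cells. The share over all genes was not counted for these scores, so this is not a result about the members. CTSZ nucleotide 1441 (0.73 and 3.84) and LAMTOR1 nucleotide 871 (0.67 and 1.46) were already above 0 in unstressed cells, and ATG5 nucleotide 1707 (0 and 1.65) and WIPI2 nucleotide 2076 (-0.55 and 1.44) had no listed stop there. SCARB2 nucleotide 2428 was at -0.47 in both, without a listed stop in cells, and a stop in the 3′ UTR of LAMP1 fell from 0.00585 to -0.82. This LAMP1 stop had 7 stops in unstressed cells and none listed in starved cells, taken as 0. The scores of CTSZ, LAMTOR1 and ATG5 rest on no listed stop in Li+, taken as 0. The lower bound of the K+ over Li+ ratio was under 2 at 7 of the 8 stops, from 0.571 in ATG5 to 1.71 in PSAP, so a 2-fold difference is not shown there. These scores have no test. LAMTOR5 had 22, 483, 34, 15, 6 and 48 stops at this G in its coding sequence (labelled K+, labelled Na+, in vitro K+, in vitro Li+, unstressed, starved). E was 3.005-fold higher in vitro in K+ than in Li+ (interval 1.59 to 5.94, same exact test, adjusted p = 0.012) and 3.09-fold higher in starved than in unstressed cells (interval 1.32 to 8.83, adjusted p = 0.03). Its E was 6.20 in vitro in K+ and 4.19 in starved cells, under 10 in each DMS library. The transcript itself had more stops in starved than in unstressed cells, so here the rise was also in the raw count.

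CTSZ, cathepsin Z, a cysteine carboxypeptidase, had the strongest stop at G of all members. Its counts at nucleotide 1446 were 76 (labelled K+), 1632 (labelled Na+), 59 (in vitro K+), 40 (in vitro Li+), 17 (unstressed) and 88 (starved). E was 11.1 in unstressed and 112.2 in starved cells, 10.1-fold apart (interval 5.98 to 18.2, same exact test, adjusted p = 3e-24). The starved transcript mean was 0.784 stops per nucleotide, under the minimum for strong stops, since the transcript's share fell in starved cells while the stop's count rose. In vitro the stop was 1.87-fold stronger in K+ (interval 1.23 to 2.87), and the same exact test gave an adjusted p of 0.055. The 2 libraries without DMS differed in where this segment stopped reverse transcriptase. Nucleotide 1446 was 14.8-fold stronger in the library labelled Na+, whereas its neighbour at 1445 had 190 stops in that labelled K+ and 88 in that labelled Na+. These stops also weighed on the CTSZ total, which was 107 SPM in the library labelled K+ and 171 in that labelled Na+.

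Of the 40 member stops, 32 were listed in at least 1 in-cell library and were tested, and 11 differed, all with a higher E in starved cells, where 23.3% of all strong stops at G tested were higher and 0.266% lower. They lay in CTSZ, PSAP, LAMTOR5 and LAMTOR1, and neighbouring stops of 1 segment share reads of the same mRNA. By direction alone, 25 of the 32 had a higher and 7 a lower E in starved cells. Counting the strongest stop of each region, 12 of 14 had a higher E in starved cells and 4 differed by the test. No share over all genes was counted for these directions. At both ATG5 stops, GLA 597, WIPI2 2076 and LAMTOR1 61, the unstressed value was an unlisted position set to 0. Set at 3 stops, the lowest listed count, the ratios were 0.683 at both ATG5 stops, 0.972, 2.03 and 3.25. The 2 of the 14 regions with a lower E were both in the 3′ UTR of LAMP1, with 7 and 3 stops in unstressed and none listed in starved cells. The upper bounds of their starved over unstressed ratios were 1.81 and 6.32. Of the 4 that differed, the fourth was the stop at nucleotide 61 in the 5′ UTR of LAMTOR1, with 6 stops in starved cells and no listed stop in unstressed cells (adjusted p = 0.019, same exact test). This call rests on the unlisted position being set to 0. With unlisted positions set to 2, the most they can hold, its adjusted p was 0.24 in the same exact test, and 7 stops in 3 regions differed, in CTSZ, PSAP and LAMTOR5 (14.0% of all). In vitro, 4 of 35 stops tested were stronger in K+ (3.43% of all), at PSAP 2373 and 2380, LAMTOR5 304 and LAMTOR1 871, of which LAMTOR1 871 was lost with unlisted positions set to 2, and 0 were stronger in Li+ (0.148% of all). At an adjusted p of 0.05, no other member stop differed in either pair.

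Other stops that were strong without DMS were not resolved in cells. ATP6AP1 nucleotide 1504 had 3 and 384 stops without DMS, 30 and 28 in vitro, and 9 in unstressed and 7 in starved cells, and its E was 2.79-fold higher in starved cells with an interval of 0.884 to 8.43. SCARB2 nucleotide 2428 had 4 and 175 stops without DMS, 16 (K+) and 7 (Li+) in vitro, and no listed stop in either in-cell library. LAMTOR1 nucleotide 869 had 21, 238, 9, 7, 3 and 8 stops, with a ratio of 4.34 (interval 1.04 to 25.4, same exact test, adjusted p = 0.086). CTSD nucleotide 2013 had 26 stops in the library labelled Na+ and was not listed in any other, and the same held for GRN nucleotide 2138 with 13 stops. In the same CTSD region, nucleotides 2007, 2014 and 2019 had 8, 3 and 3 stops in unstressed cells. In starved cells only 2019 was listed, with 4 stops. Since its strongest stop was unlisted in cells, this region was not among those compared. The coding stop of CTSZ at nucleotide 885 had 11 and 196 stops without DMS, 6 and 8 in vitro, and none listed in cells. The 2 stops of ATG5 had 14 and 15 stops in the library labelled K+, 6 and 8 in that labelled Na+, and 7 each in starved cells. The 30 nt before the latter stop hold no run of 2 G.

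SQSTM1, GLA, WIPI2 and CTSD (coding sequence) also had strong stops at G that were under 2-fold different between the libraries without DMS. SQSTM1 nucleotide 2786 had 44 and 71 stops without DMS, 11 and 10 in vitro, 10 in unstressed and 19 in starved cells, a ratio of E of 2.10 (interval 0.930 to 5.06). SQSTM1 also gave 2 of the 7 strong stops at G in starved cells, and PSAP gave 3, of which those at nucleotides 2510 and 2775 were not strong without DMS. The remaining 2 were in CTSL and GABARAP.

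**Figure D5:**
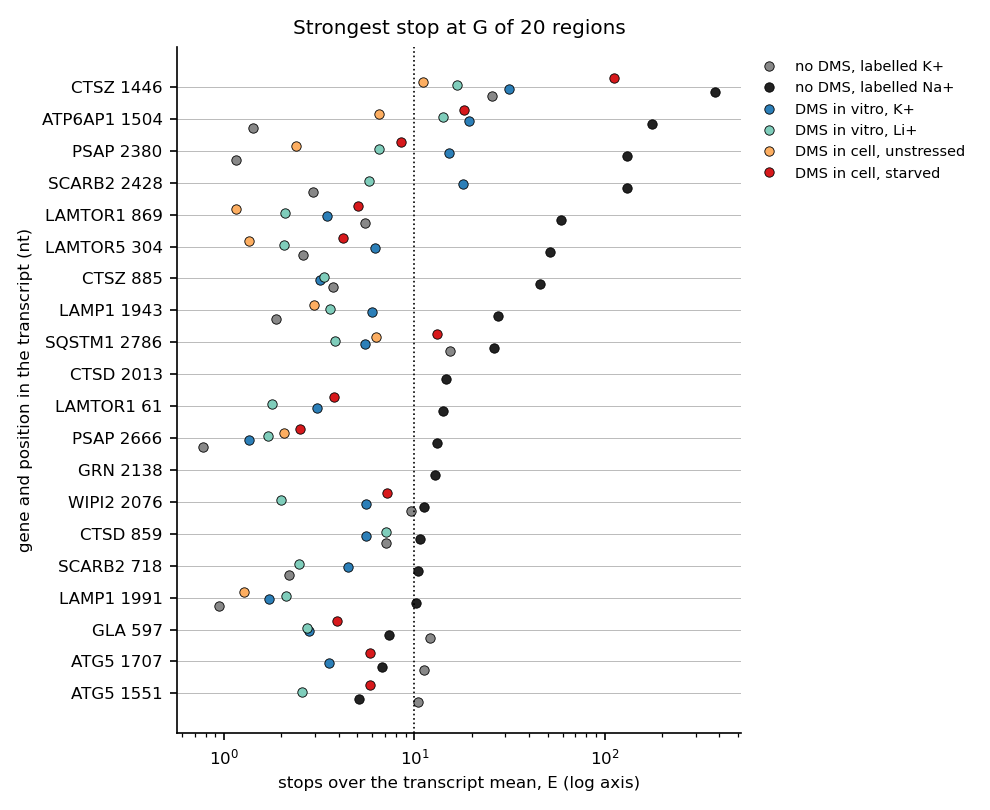
Stops over the transcript mean, E (horizontal log axis), at the strongest stop at G of the 20 regions in the 6 libraries; libraries without a listed stop are not drawn, and the dotted line marks the threshold of 10. The library labelled Na+ is rightmost in 17 of the 20 regions, and at CTSZ 1446 starved cells (112.2) are the next highest.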

How the data were processed

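RT-stop profiling was done by the authors in 6 U2OS libraries. Duplicate reads were removed, trimmed reads were aligned with Bowtie to hg19 transcripts, keeping unique hits with no mismatch, and RT stops were counted at each nucleotide. The deposited counts list each nucleotide with at least 3 stops. The deposited ratio divides each count by a mean of its transcript, which in the files was computed per base (A, C, G or U).

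Stops were summed per transcript and divided by the library total. The library totals were 35371061 (labelled K+), 33507714 (labelled Na+), 21480565 (in vitro K+), 31174408 (in vitro Li+), 12999691 (unstressed) and 24014417 (starved). Shares were compared for transcripts with at least 100 listed stops in a pair, 1 transcript per gene, and called at 1.5-fold. A library at 0 entered at 3 stops. Intervals are exact 95% binomial intervals of counts or Wilson intervals of shares. The listed bases served to find the GENCODE release 44 (GRCh37) transcript of each mRNA, at 97% identity or more over 80% of the bases or more, which succeeded for 10541 of 11031 transcripts and for all 42 members. Means over whole transcripts and unlisted stops were rebuilt from these means per base and the sequence, and E is the count over that mean. Fisher's exact test was two-sided, on all strong stops at G of either library without DMS, with unlisted positions as 0 and rebuilt totals. Molecular identifiers were not used here, so intervals cover counting error only.

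Members and gene lists were chosen with earlier results of these data known. Named were PSAP, the 5 largest rises and 5 largest falls, members with a strong stop at G at least 2-fold apart between the libraries without DMS, and the 2 largest rises and falls of other pathway genes. Others are named beside their group. 1 further sequence is not reported here. The calculations were tested on simulated data. Tests used scipy 1.17.1 and statsmodels, tables pandas 2.3.3 and numpy 2.4.6, and plots matplotlib 3.10.9, in Python 3.11.15.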

Additional observations from a re-analysis of the deposited data

How the results depend on the processing

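The fall of most member shares in starved cells kept its direction in the median under all alternatives run, but its size did not. The 23 members at least 1.5-fold lower all stayed so with unlisted stops rebuilt and with the starved library thinned to the unstressed depth. When thinned, 29 members and 52.1% of all genes were lower, and the median of all genes was -0.71. Of the 23, 22 stayed so centred on the median of all transcripts, and 21 with stops at G and U only. Centred by GC content, 9 of the 23 stayed 1.5-fold lower, and 10 did so with unlisted stops also rebuilt. The count of higher members (1) was 10 with stops at G and U only (38.2% of all genes), 5 centred on the median (37.9%), 5 at the lower fold threshold set as an alternative (39.2%), 2 with the starved library thinned (24.5%), 9 centred by GC content (29.1%) and 4 rebuilt and centred by GC content (19.4%). The count of lower members was 13 under both GC settings. The median log2 ratio (-1.11) was -0.94 rebuilt, -0.91 centred on the median, -0.999 with a minimum of 1000 stops, -1.40 thinned, -0.30 centred by GC content and -0.25 with both. Among the called members, GUSB changed sign with stops at G and U only (1.21). Centred by GC content, GUSB (0.59), NEU1 (0.0497), CD63 (0.71), SQSTM1 (0.79), ATP6V0B (0.0285), WIPI2 (0.37) and LAMTOR1 (0.0778) changed sign, and with unlisted stops rebuilt as well GUSB (0.30), TPP1 (0.10), NEU1 (0.0108), CD63 (0.33), SQSTM1 (0.45) and WIPI2 (0.15) did. In each of these 3 settings 5 members between the thresholds also changed sign, including CTSL (1.34, 0.60 and 0.47) and LAMP2 (-1.79, -0.59 and -0.71). The cause was not tested.

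Strong stops at G numbered 8 in the library labelled K+ and 37 in that labelled Na+, and 185 and 230 with strong set at an E of 5, 2 and 18 with 20, and 28 and 70 with a transcript mean of 0.25 or more. With a mean of at least 2, the library labelled K+ had 5. The 2 K+-dependent stops by the labels became 31 with the labels exchanged, 82 with an E of 5, 13 with a transcript mean of 0.25, 4 with a cation fold of 1.5, and 1 each with an E of 20, a cation fold of 3, a mean of at least 2 and with the deposited ratio as E. The number of regions with a higher E in starved cells (12 of 14) lay between 11 and 13 over its alternatives, and in vitro it was 13 of 18 in each. The share over all genes was counted for neither. With unlisted positions set to 2 in the exact test, chosen after seeing the data, 7 member stops instead of 11 differed in cells (14.0% of all), in 3 regions instead of 4, and 3 instead of 4 did in vitro. No paired analysis was possible because each condition has 1 library. Unlisted positions limit these values, since 16 of the 40 stops were not listed in unstressed and 14 not in starved cells.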

Other observations

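GABARAP, an ATG8 protein of the autophagosome, had a strong stop at C rather than G in its 3′ UTR. Nucleotide 513 had 333 stops in the library labelled K+ (E of 41.4) and 280 in that labelled Na+ (E of 36.3), and 56 in starved cells (E of 11.5), where it was the strongest stop of this mRNA.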
